A study of Mus musculus with 4 samples.

Results

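The 38 immediate early and AP-1 genes described here are transcription factors and feedback regulators named one by one in a list: the Fos and Jun families with their bZIP partners Atf3 and Maff, the Egr, Nr4a and Klf factors, Myc, Cebpb and Cebpd, the Ier genes, and inhibitors such as Dusp1, Zfp36, Socs3 and Nfkbia. They are 38 of 32286 features in the count tables, and all 38 were found there by symbol. The cells came from C57BL/6J mice of genotype Tnfsf11tTA/+; LC1; Rosa26LSL-tdTomato, in which a tetracycline transactivator placed in Tnfsf11, which encodes the cytokine RANKL, switches on a Cre and thereby a lasting tdTomato label in cells that have used the locus and in their descendants. The immobilized group had 2 weeks of hindlimb immobilization from 8 weeks of age and was 1 pool of 6 animals. The control group was 1 pool of 4 animals without immobilization. Both groups carried the same alleles, received doxycycline until birth so that fetal use of the locus left no label, and were taken at 10 weeks of age. Femurs and tibias of both limbs were decalcified for 1 hour in EDTA and digested for 1 hour at 37 °C with collagenase, Liberase and DNase before tdTomato+ CD45.2- Ter119- cells were sorted into 10x Genomics 3′ droplet libraries. Because the animals of a group were pooled, each group is 1 sample, animals cannot be compared by a test, and every interval covers counting error only.

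Immediate early genes are transcribed within minutes of a stimulus from transcription factors that already sit in the cell, without new protein synthesis, and their RNAs decay quickly. Fos and Jun proteins pair through leucine zippers to form AP-1, which binds TGACTCA sites, and JUNB, JUND, FOSB and FOSL2 are known regulators of osteoblast differentiation and bone mass. Mechanical load, parathyroid hormone and growth factors induce the genes in bone cells. Warm enzymatic digestion of tissue also induces them, together with heat shock genes such as Hspa1a and Hspa1b, so the level in a sorted cell holds both what the cell did in the animal and what it did during isolation.

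Each group was deposited as 2 lanes. The lanes shared 1747 barcodes in the immobilized group and 1617 in the control group, and largely repeated each other's counts: 75.5% of the UMIs of the first lane in the immobilized group and 79.0% in the control group were matched by gene and barcode in the second. Lanes of a pool differed by less than independent sampling would give (mean chi-square per gene 0.588 in the immobilized and 0.537 in the control group), and were averaged into 1 sample. The lanes held 9960011 and 10084134 UMIs in the immobilized group and 10732720 and 10860328 in the control group. After filters, 1394 immobilized and 1411 control cells remained, and 5 classes of them are used here. Lepr+ CAR stromal-like cells, the CXCL12-rich marrow stroma, numbered 316 in the immobilized and 550 in the control pool. Osteo-primed stromal-like cells, marked by Wif1, Tnc and Limch1, numbered 296 in the immobilized and 196 in the control pool, and osteoblast-like cells 473 in the immobilized and 472 in the control pool. Granulocyte-like cells (50 immobilized, 41 control) and erythroid-like cells (44 immobilized, 11 control) were present although the gate was set against CD45.2 and Ter119. The granulocyte-like cluster carried 10 of the 11 markers on its list, but its leading genes were Il1b, Il1f9 and Cxcl2.

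Since many members move together, the bases upstream of their start sites were searched for the sites of the factors known to drive them. RefSeq promoters on GRCm38.p6 were matched for 31 of the 38 members (not for Cebpd, Egr1, Egr3, Fosl1, Ier2, Myc and Rrad), and the 250 bases before each start were read on both strands. TGACG, one arm of the cAMP response element, was in 51.6% of the matched members and in 19.8% of all genes with a promoter. The complete element TGACGTCA, which contains it, was in 9.68% of members (Btg2, Dusp1 and Maff) and in 1.77% of all genes. The EGR site GCGNGGGCG was in 38.7% of members and 5.33% of all genes, and the CArG box, where SRF binds, in 9.68% of members (Dusp5, Egr2 and Zfp36) and 1.62% of all genes. Sites further than 250 bases from a start, in Fos or any other member, were not sought. The AP-1 site TGACTCA was in none of the 31 members and in 5.16% of all genes. An NF-kB site was in 19.4% of members, Fos and Fosb among them, and in 4.5% of all genes. Jun, which varies with Fos within cells, had a match to none of the sites searched. Gadd45b, Ier3 and Socs3, which also vary with other members, had no TGACG. These 4 are not shown. 5 of the matched promoters are shown, of genes that are among those that vary together within cells. Capitals mark TGACG on either strand, the complete element in Btg2, and the CArG box in Zfp36. They lie at chr12:85473640-85473889 on the plus strand (Fos), chr7:19310046-19310295 on the minus strand (Fosb), chr8:84978749-84978998 on the minus strand (Junb), chr1:134079156-134079405 on the minus strand (Btg2) and chr7:28379229-28379478 on the minus strand (Zfp36).
Fos: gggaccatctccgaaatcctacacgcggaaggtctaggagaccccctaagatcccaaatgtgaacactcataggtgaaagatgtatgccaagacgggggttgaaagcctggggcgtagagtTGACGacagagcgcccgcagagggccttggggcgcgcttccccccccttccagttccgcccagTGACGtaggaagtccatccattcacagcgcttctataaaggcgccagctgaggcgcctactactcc
Fosb: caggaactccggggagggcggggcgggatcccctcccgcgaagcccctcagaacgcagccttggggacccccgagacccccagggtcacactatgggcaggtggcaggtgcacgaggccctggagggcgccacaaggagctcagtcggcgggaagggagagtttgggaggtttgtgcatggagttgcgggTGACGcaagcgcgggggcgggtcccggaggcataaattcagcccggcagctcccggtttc
Junb: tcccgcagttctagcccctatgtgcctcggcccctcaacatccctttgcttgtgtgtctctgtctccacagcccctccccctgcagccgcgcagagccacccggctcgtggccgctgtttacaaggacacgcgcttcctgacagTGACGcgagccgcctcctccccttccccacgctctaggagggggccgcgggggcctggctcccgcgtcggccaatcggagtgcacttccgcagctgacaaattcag
Btg2: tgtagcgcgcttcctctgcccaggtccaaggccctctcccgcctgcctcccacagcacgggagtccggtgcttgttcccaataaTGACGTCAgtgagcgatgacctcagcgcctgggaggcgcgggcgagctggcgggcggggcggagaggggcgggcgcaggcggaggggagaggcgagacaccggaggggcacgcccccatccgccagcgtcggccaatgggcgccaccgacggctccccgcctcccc
Zfp36: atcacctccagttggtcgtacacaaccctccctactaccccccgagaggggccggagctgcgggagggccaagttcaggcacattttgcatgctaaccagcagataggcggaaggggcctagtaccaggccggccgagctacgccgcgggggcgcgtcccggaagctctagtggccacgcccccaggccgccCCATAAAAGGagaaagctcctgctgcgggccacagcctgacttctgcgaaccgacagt
In Fos the TGACG matches begin 129 and 66 bases before the start site and a TATAAA 33 bases before it. Fosb holds 1 TGACG, 60 bases before the start, and Junb 1, 106 bases before it. Btg2 has the complete element 166 bases before its start, and Zfp36 has no TGACG but a CArG box 58 bases before its start. A match is a description of letters in a window and says nothing about binding in these cells.

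The 38 members together made up a smaller share of the RNA in the immobilized pool than in the control pool in all 3 skeletal classes. Lepr+ CAR stromal-like cells gave them 0.257% of UMIs in the immobilized pool (95% counting interval 0.249 to 0.264%) and 0.394% in the control pool (0.386 to 0.402%). Among osteo-primed stromal-like cells they held 0.481% of UMIs in the immobilized pool and 0.675% in the control pool. In osteoblast-like cells the values were 0.535% in the immobilized pool and 0.696% in the control pool. As log2 ratios of these shares, immobilized over control, the differences were -0.62 (-0.67 to -0.57), -0.49 (-0.53 to -0.45) and -0.38 (-0.40 to -0.35). The share was uneven between cells of 1 class. The median Lepr+ CAR stromal-like cell gave 0.167% of its UMIs to members in the immobilized pool and 0.259% in the control pool. The median osteo-primed stromal-like cell gave 0.238% in the immobilized and 0.281% in the control pool, and the median osteoblast-like cell 0.354% in the immobilized and 0.522% in the control pool. Cells with over 1% member UMIs were 3.48% of immobilized and 6.91% of control Lepr+ CAR stromal-like cells, 14.9% of immobilized and 25% of control osteo-primed stromal-like cells, and 16.3% of immobilized and 27.8% of control osteoblast-like cells. For osteo-primed stromal-like cells the medians of the pools were therefore close, while the upper quartile was 0.637% in the immobilized pool and 1.01% in the control pool. The 10% of osteo-primed stromal-like cells with the most member UMIs held 41.5% of all member UMIs of the class in the immobilized pool and 53.1% in the control pool.

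**Figure D1:**
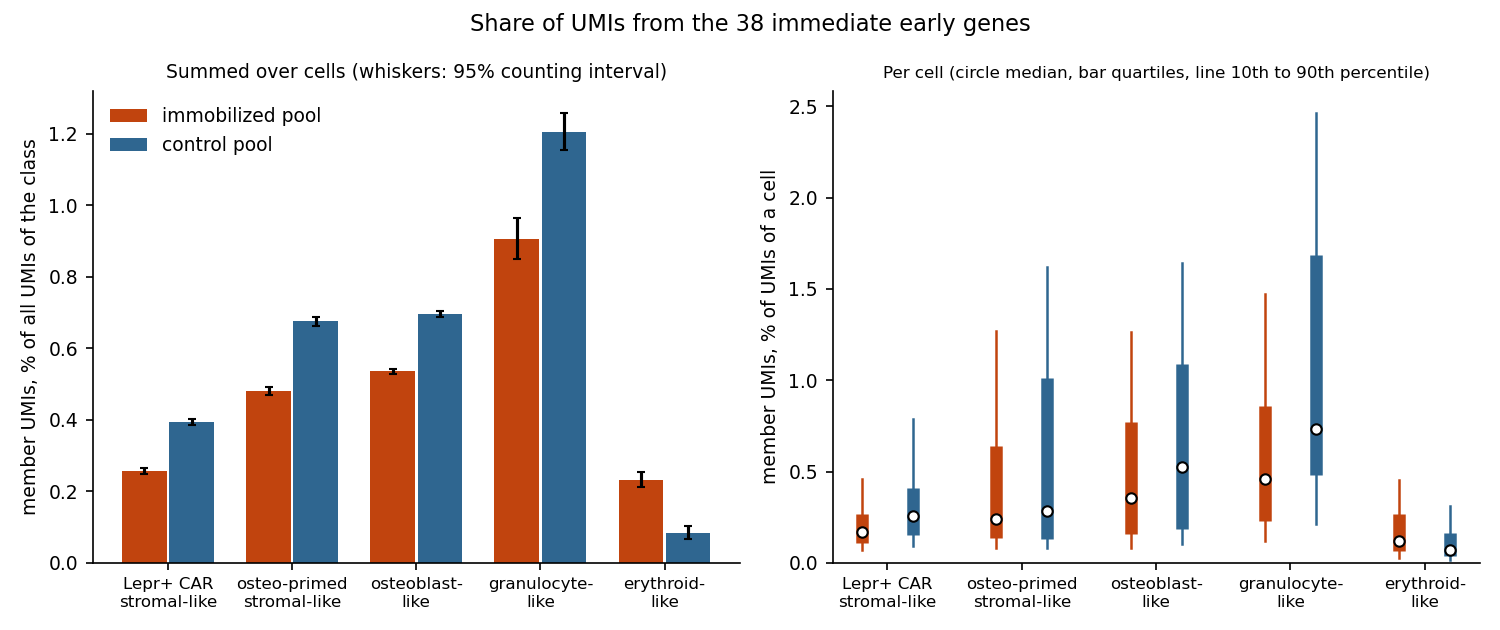
Share of UMIs from the 38 members in 5 cell classes, immobilized pool left of control pool. The left panel gives the percent of all UMIs of a class with its 95% counting interval, and the right panel the spread over single cells, which is widest in granulocyte-like control cells. The immobilized pool is lower in 4 classes and higher in erythroid-like cells (0.233% against 0.0834%), of which the control pool holds 11.

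The pools also differed in the makeup of each class and in other stress genes. Of the Lepr+ CAR stromal-like cells, cluster 1 held 142 of 316 immobilized cells and 14 of 550 control cells, while clusters 3 and 7 held 199 and 221 of the control cells. Osteoblast-like cells were mainly of clusters 9 and 11 in the immobilized pool (187 and 197 of 473) and of clusters 13 and 11 in the control pool (168 and 139 of 472). Clusters were made without the members and without a list of 16 heat shock and stress genes. The summed heat shock and stress list was 0.184% of UMIs in immobilized and 0.25% in control Lepr+ CAR stromal-like cells, 0.226% in immobilized and 0.318% in control osteo-primed stromal-like cells, and 0.193% in immobilized and 0.301% in control osteoblast-like cells. A UMI of Hspa1a or Hspa1b, the inducible HSP70 genes, was sought in each lane alone and the shares averaged. It was in 3.48%, 9.29% and 17.0% of immobilized cells of these classes and in 10.0%, 25.3% and 52.8% of control cells. The part of these differences in the member levels was examined only by the subsets given further on.

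In Lepr+ CAR stromal-like cells, 25 members had at least 50 UMIs in 1 pool, and all 25 were lower in the immobilized pool, against 49.9% of 7310 genes with a log2 ratio below 0. Of the 25, 16 were at least 1.5-fold lower with an interval that leaves out a ratio of 1, as were 4.43% of all genes, and none was as much higher, as were 4.19% of all genes. The median log2 ratio was -0.72 for the members and 0.00 for all genes. Among the AP-1 subunits, Fos had 166 CPM (UMIs per 1000000 UMIs of the class) in the immobilized pool and 291 CPM in the control pool, a log2 ratio of -0.80 (-1.01 to -0.60). Fosb had 121 CPM in the immobilized and 274 CPM in the control pool (log2 ratio -1.18). Jun, the partner that Fos proteins need in order to bind DNA, had 119 CPM in the immobilized and 236 CPM in the control pool (log2 ratio -0.99). Junb (-0.90) and Jund (-0.72) were lower too, so all 5 measured AP-1 subunits passed 1.5-fold. Egr1, a zinc finger factor that follows growth factor and mechanical signals, had 71.7 CPM in the immobilized and 156 CPM in the control pool (log2 ratio -1.11). Ier2, a short-lived nuclear protein, had the lowest ratio of the measured members, with 18.3 CPM in the immobilized and 53.3 CPM in the control pool (log2 ratio -1.52, -2.17 to -0.96).

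The other 9 members past 1.5-fold in Lepr+ CAR stromal-like cells included feedback regulators, Klf factors and Ier genes. Gadd45b, a stress-induced gene, had 51.8 CPM in the immobilized and 99.1 CPM in the control pool (log2 ratio -0.93), and Dusp1, a phosphatase that switches off MAP kinases, 35.1 CPM in the immobilized and 64.4 CPM in the control pool (-0.87). Nfkbia, the inhibitor that holds NF-kB in the cytoplasm, had 130 CPM in the immobilized and 223 CPM in the control pool (-0.78). Zfp36, which binds AU-rich RNAs and speeds their decay, had 36 CPM in the immobilized and 54.6 CPM in the control pool (-0.59). Ier5l (-1.27), Ier3 (-0.84), Klf4 (-0.74), Klf2 (-0.68) and Ier5 (-0.62) completed the 16. The 9 measured members that did not pass were Nr4a1, Btg1, Btg2, Klf6, Gadd45g, Socs3, Cebpb and Cebpd, with log2 ratios between -0.55 and -0.43, and Zfp36l1. Zfp36l1, a paralogue of Zfp36, was level at 577 CPM in the immobilized and 597 CPM in the control pool (log2 ratio -0.05, -0.17 to 0.07). The 13 members under 50 UMIs included Egr3, with no UMI in the immobilized and 12.5 UMIs in the control pool.

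**Figure D2:**
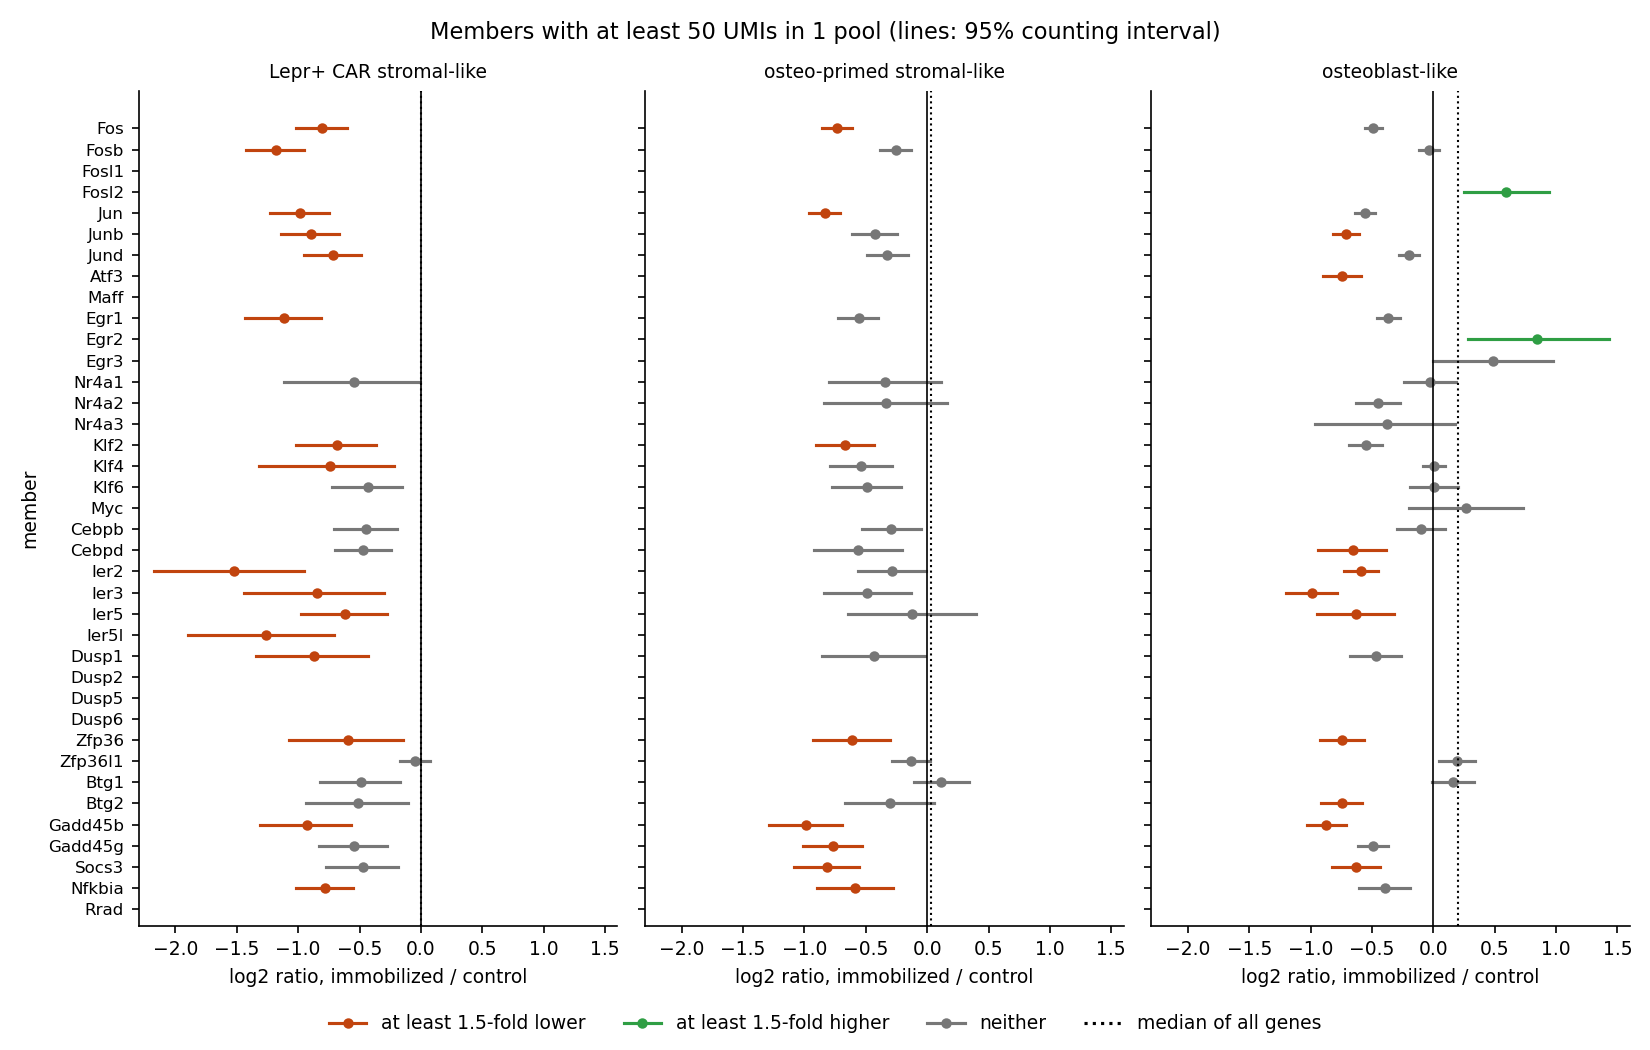
Log2 ratio of CPM, immobilized over control, for members with at least 50 UMIs in 1 pool, with 95% counting intervals, in 3 cell classes. In Lepr+ CAR stromal-like cells all 25 points lie below 0, and in osteoblast-like cells Egr2, Fosl2, Egr3 and Myc lie above the dotted median of all genes.

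In osteo-primed stromal-like cells, 25 members were measured and 24 were lower in the immobilized pool, against 44.9% of 5997 genes. Of the 25, 8 were at least 1.5-fold lower, against 2.87% of all genes, and none was as much higher, against 3.40%. The median log2 ratio was -0.49 for the members and 0.03 for all genes. Jun had 488 CPM in the immobilized and 871 CPM in the control pool (log2 ratio -0.84, -0.96 to -0.71), and Fos 500 CPM in the immobilized and 832 CPM in the control pool (-0.73). The other AP-1 subunits were nearer to each other in the pools: Fosb had 555 CPM in the immobilized and 663 CPM in the control pool (-0.26), with Jund at -0.32 and Junb at -0.43. Gadd45b had the lowest ratio, with 85.4 CPM in the immobilized and 170 CPM in the control pool (-0.99). Socs3, the feedback inhibitor of cytokine receptors that signal through JAK and STAT, had 110 CPM in the immobilized and 194 CPM in the control pool (-0.82). Gadd45g (-0.77), Klf2 (-0.67), Zfp36 (-0.61) and Nfkbia (-0.59) were the others past 1.5-fold. Btg1, which slows proliferation, was the 1 member above 0, with 217 CPM in the immobilized and 200 CPM in the control pool (log2 ratio 0.12, -0.10 to 0.34).

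In osteoblast-like cells, 31 members were measured and 23 were below 0, against 32.0% of 8022 genes. The genes as a whole were shifted here, with a median log2 ratio of 0.20, and 27 of the 31 members lay below that median. The members' own median was -0.45. Of the 31, 10 were at least 1.5-fold lower, against 3.78% of all genes, and 2 were at least 1.5-fold higher, against 15.3% of all genes. With median-ratio scaling, which removes the shift, 19 were lower and 1 was higher, and the shares of all genes with this scaling are not given here. Ier3 had 66.1 CPM in the immobilized and 132 CPM in the control pool (log2 ratio -0.99, -1.20 to -0.79). Gadd45b had 115 CPM in the immobilized and 210 CPM in the control pool (-0.87). Btg2, a partner of the deadenylase that shortens RNA tails, had 108 CPM in the immobilized and 181 CPM in the control pool (-0.75), and Atf3, a stress-induced bZIP factor, 122 CPM in the immobilized and 204 CPM in the control pool (-0.74). Zfp36 (-0.74), Junb (-0.71), Cebpd (-0.66), Socs3 (-0.63), Ier5 (-0.63) and Ier2 (-0.59) completed the 10.

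Members of the same family differed within osteoblast-like cells. Fos had 651 CPM in the immobilized and 913 CPM in the control pool (log2 ratio -0.49), while Fosb was level at 546 CPM in the immobilized and 560 CPM in the control pool (-0.04, -0.12 to 0.04). Fosl2 was higher, with 37.2 CPM in the immobilized and 24.6 CPM in the control pool (0.59, 0.25 to 0.95). Egr1 had 368 CPM in the immobilized and 476 CPM in the control pool (-0.37), but Egr2 had 15.8 CPM in the immobilized and 8.76 CPM in the control pool (0.85, 0.28 to 1.43) and Egr3 18.7 CPM in the immobilized and 13.4 CPM in the control pool (0.48, with an interval that reaches 0). Both Egr2 pools rest on few molecules, 64.5 UMIs in the immobilized and 45.5 in the control pool, and with cells of at least 1000 genes and under 5% mitochondrial UMIs the Egr2 ratio was -1.39. Klf4, which had a UMI in 77.6% of immobilized and 85.1% of control osteoblast-like cells, was level at 420 CPM in the immobilized and 418 CPM in the control pool (0.01), while Klf2 was at -0.55.

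Across the 3 classes, 24 members were measured in each. Gadd45b and Zfp36 were at least 1.5-fold lower in all 3 classes. Fos, Ier2, Ier3, Ier5, Jun, Junb, Klf2, Nfkbia and Socs3 passed in 2 classes and 10 more members in 1. The shares of all genes that passed in 1, 2 or all 3 classes were not computed, so these counts have no background here. Dusp2, Dusp5, Dusp6, Fosl1, Maff and Rrad had under 50 UMIs everywhere and were not compared. Whether the size of a difference varies between classes was not tested.

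Granulocyte-like cells had the largest share of member UMIs, 0.907% in the immobilized and 1.21% in the control pool. A median granulocyte-like cell had 1523 UMIs in the immobilized and 3013 UMIs in the control pool, which limits shares of cells with a UMI. A UMI of Col1a1, the bone collagen gene that granulocytes lack, was in 88.0% of immobilized and 92.7% of control granulocyte-like cells. The part of such free RNA in the member values was not tested. Klf4 had 193 CPM in the immobilized and 133 CPM in the control granulocyte-like cells. Fos had 881 CPM in the immobilized and 485 CPM in the control pool, although 24.0% of immobilized and 46.3% of control cells had a Fos UMI. Atf3 had 280 CPM in the immobilized and 508 CPM in the control pool. Cebpb, a factor of the myeloid lineage, had 670 CPM in the immobilized and 953 CPM in the control pool, and Klf2 670 CPM in the immobilized and 918 CPM in the control pool. No ratio was computed for these 50 and 41 cells.

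Erythroid-like cells had the smallest share in the control pool, 0.0834% over 11 cells, and 0.233% over 44 cells in the immobilized pool. There 14 of the 38 members had no UMI in the control pool and 4 had none in the immobilized pool. Jun had 322 CPM in the immobilized and 107 CPM in the control pool and Fosb 273 CPM in the immobilized and 112 CPM in the control pool. Myc had 7.80 CPM in the immobilized and 66.1 CPM in the control pool. Both Myc values rest on very few UMIs, since the class held 192368 UMIs in the immobilized and 98315 in the control pool. A Col1a1 UMI was in 88.6% of immobilized and all control erythroid-like cells. With 11 control cells these values describe single cells more than a class.

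Within cells, the members varied together around the AP-1 genes and Egr1. Pairs were taken of members with a UMI, in either lane, in at least 10% of the cells of a class in both pools. For each pair, Pearson's r of log2(counts per 10000 + 1), with the lanes added, was computed over cells. A pair was counted as moving together at r of at least 0.25 in both pools. This held for 64 of 276 pairs in Lepr+ CAR stromal-like cells (23.2%), where 0.0523% of pairs of genes outside the members passed. It held for 178 of 406 pairs in osteo-primed stromal-like cells (43.8%, against 0.0794% of other pairs) and for 247 of 406 in osteoblast-like cells (60.8%, against 0.114%). The cells of a pool share a library, and depth enters r. With each cell thinned to 2000 UMIs of the first lane alone, 26, 71 and 58 pairs passed 0.25. This changes the lanes used as well as the depth, and the share of other gene pairs was not computed with thinning. With values taken relative to their cluster, 64, 158 and 109 pairs passed, so in osteoblast-like cells the count depends on differences between clusters.

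The pairs among Fos, Fosb, Jun, Junb and Egr1, a group picked here after its values were seen, were among the most alike. Their 10 pairs in Lepr+ CAR stromal-like cells ran from 0.49 to 0.75 over 316 immobilized cells and from 0.56 to 0.71 over 550 control cells. The osteo-primed stromal-like values ran from 0.62 to 0.83 over 296 immobilized and from 0.72 to 0.82 over 196 control cells. The osteoblast-like values ran from 0.57 to 0.76 over 473 immobilized and from 0.69 to 0.79 over 472 control cells. Fos and Fosb, transcribed from different chromosomes, had r of 0.63 in immobilized and 0.71 in control Lepr+ CAR stromal-like cells, 0.83 in immobilized and 0.81 in control osteo-primed stromal-like cells, and 0.76 in immobilized and 0.78 in control osteoblast-like cells. Ranked by the median r with all partners (the lower of the pools for each pair), the highest member outside these 5 was Jund in Lepr+ CAR stromal-like cells, Btg2 in osteo-primed stromal-like cells and Atf3 in osteoblast-like cells. In osteoblast-like cells Atf3 had r to Jun of 0.60 in the immobilized and 0.68 in the control pool.

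Other members passed 0.25 with few or no partners. Each still had a median r above that of pairs of genes outside the members, which was 0.00 to 0.01. The median r of Cebpd was 0.14 in immobilized and 0.34 in control osteo-primed stromal-like cells. Few UMIs limit r, and the part of detection was not tested. As a lane average, Dusp6 had a UMI in 7.28% of immobilized and 6.55% of control Lepr+ CAR stromal-like cells. Zfp36l1 had one in 80.4% of immobilized and 81.4% of control cells. Dusp6, the cytoplasmic ERK phosphatase, had a median r with its 23 partners of 0.03 in immobilized and 0.05 in control Lepr+ CAR stromal-like cells, and passed 0.25 with none. Among osteo-primed stromal-like cells Dusp6, Myc, Ier5l, Zfp36l1 and Cebpd passed with none of their 28 partners. In osteoblast-like cells Myc had a median r of 0.12 in the immobilized and 0.13 in the control pool and again passed with none, and Fosl2 passed with 2. Nfkbia, whose level follows NF-kB, passed with 4 of 28 members in osteoblast-like cells and had a median r of 0.17 in the immobilized and 0.33 in the control pool. Cebpb, Klf2, Gadd45g, Nfkbia, Zfp36l1, Klf6 and Cebpd passed with none in Lepr+ CAR stromal-like cells. Fosl2 and Egr2 were the members at least 1.5-fold higher in the immobilized osteoblast-like cells, and Egr2 was in too few cells to be paired.

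**Figure D3:**
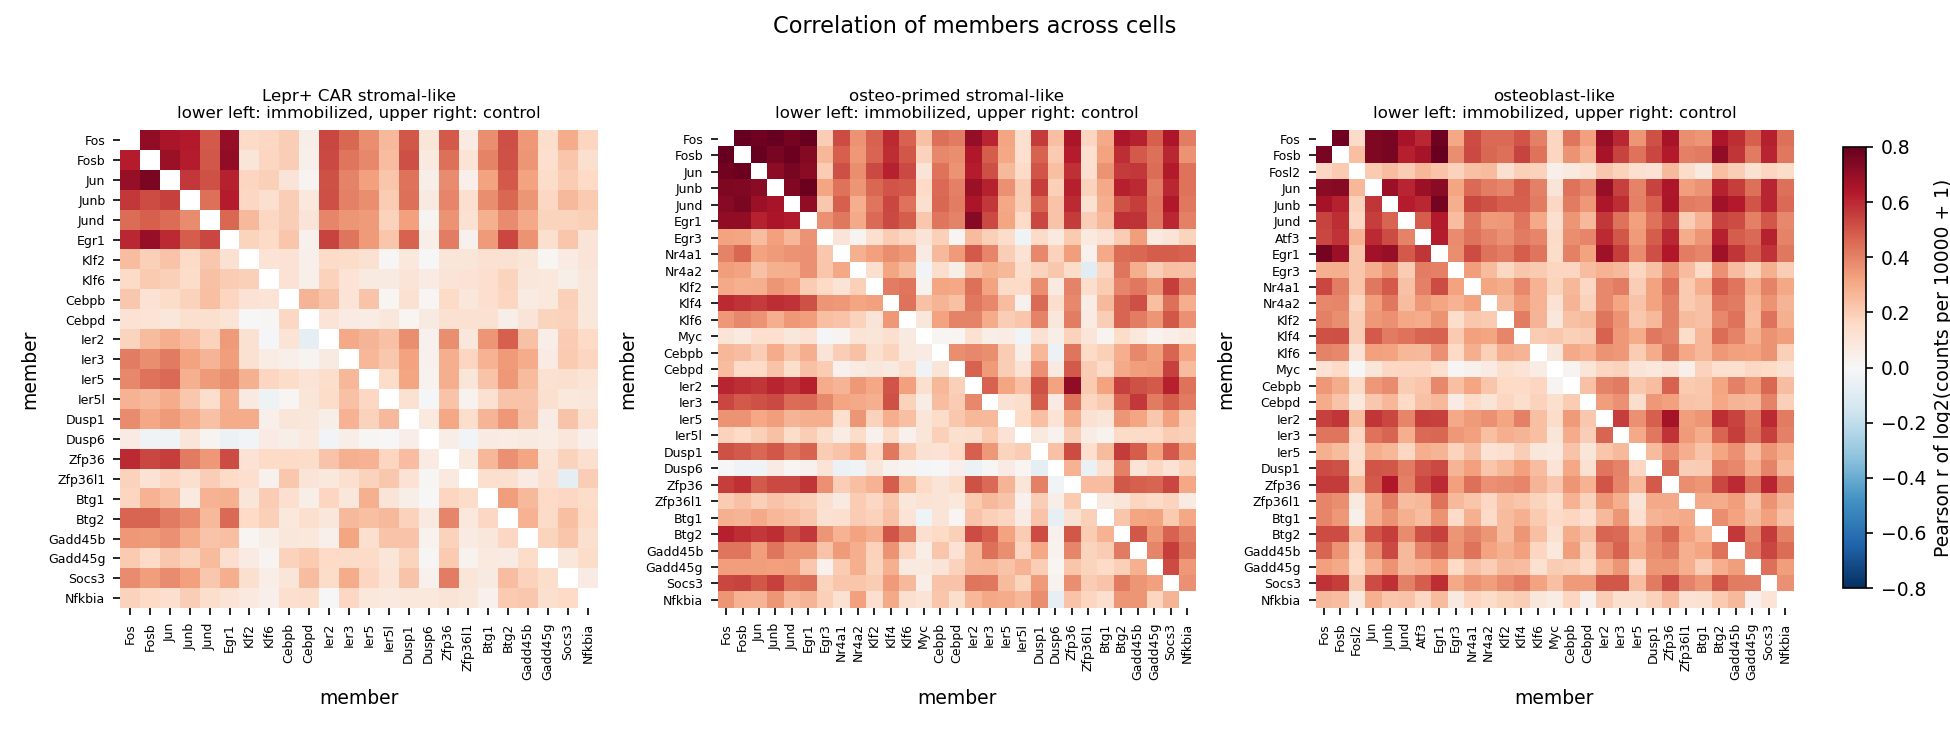
Pearson r across cells between members, over the genes with a UMI in either lane in at least 10% of cells of the class in both pools, immobilized values in the lower left and control values in the upper right of each panel. Pairs among Fos, Fosb, Jun, Junb and Egr1 are dark in each class, with r of at least 0.49, and Dusp6 and Myc form pale lines.

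The summed members followed the heat shock and stress genes more closely than the mitochondrial share or the depth of a cell. The protocol gives no measure of handling for a cell, so the summed list of 16 genes stands as a marker of it. The summed members had r with that list of 0.38 in immobilized and 0.47 in control Lepr+ CAR stromal-like cells, 0.47 in immobilized and 0.63 in control osteo-primed stromal-like cells, and 0.49 in immobilized and 0.71 in control osteoblast-like cells. A sum is not comparable with single genes. The median r of a single member with the list was 0.18 in immobilized and 0.24 in control Lepr+ CAR stromal-like cells. It was 0.30 in immobilized and 0.41 in control osteo-primed stromal-like cells, and 0.31 in immobilized and 0.41 in control osteoblast-like cells. The median r of single genes as a whole with the list was between 0.00 and 0.02 in each class and pool. With the mitochondrial share, the summed members had r of -0.01 in immobilized and -0.13 in control Lepr+ CAR stromal-like cells, and between -0.01 and 0.11 in the other 2 classes. With log2 of total UMIs, r was between -0.05 and 0.12. Single members lay further out with depth, among them Jund (0.25) and Klf4 (0.21) in immobilized osteoblast-like cells. In immobilized Lepr+ CAR stromal-like cells Zfp36l1 had r of 0.18 with depth and 0.14 with the list, and Dusp6 0.18 with depth and 0.09 with the list.

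By member, the highest r with the list in a class and pool belonged to Jund, Junb, Fos or Egr1. In osteoblast-like cells Egr1 had 0.42 in the immobilized and 0.62 in the control pool, Fos 0.42 in the immobilized and 0.62 in the control pool, and Junb 0.45 in the immobilized and 0.61 in the control pool. Among Lepr+ CAR stromal-like cells Jund led in both pools, with 0.38 in the immobilized and 0.41 in the control pool. At the low end, Fosl2 had 0.09 in the immobilized and 0.11 in the control osteoblast-like cells and Myc 0.15 in each pool. Dusp6 had 0.03 in the immobilized and 0.15 in the control osteo-primed stromal-like cells. Zfp36l1, which was level between the pools, had 0.14 in the immobilized and 0.08 in the control Lepr+ CAR stromal-like cells. The value was lower in the immobilized pool for 18 of 24 members in Lepr+ CAR stromal-like, 25 of 29 in osteo-primed stromal-like and 28 of 29 in osteoblast-like cells, and after thinning for 20, 24 and 23. The share of all genes with a lower value in the immobilized pool was not computed. The list itself held a smaller share of UMIs there in each class, and the part of this in the values was not tested. After thinning to 2000 UMIs of the first lane the median r of a member was 0.07 in immobilized and 0.12 in control Lepr+ CAR stromal-like cells, 0.15 in immobilized and 0.26 in control osteo-primed stromal-like cells, and 0.16 in immobilized and 0.24 in control osteoblast-like cells.

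**Figure D4:**
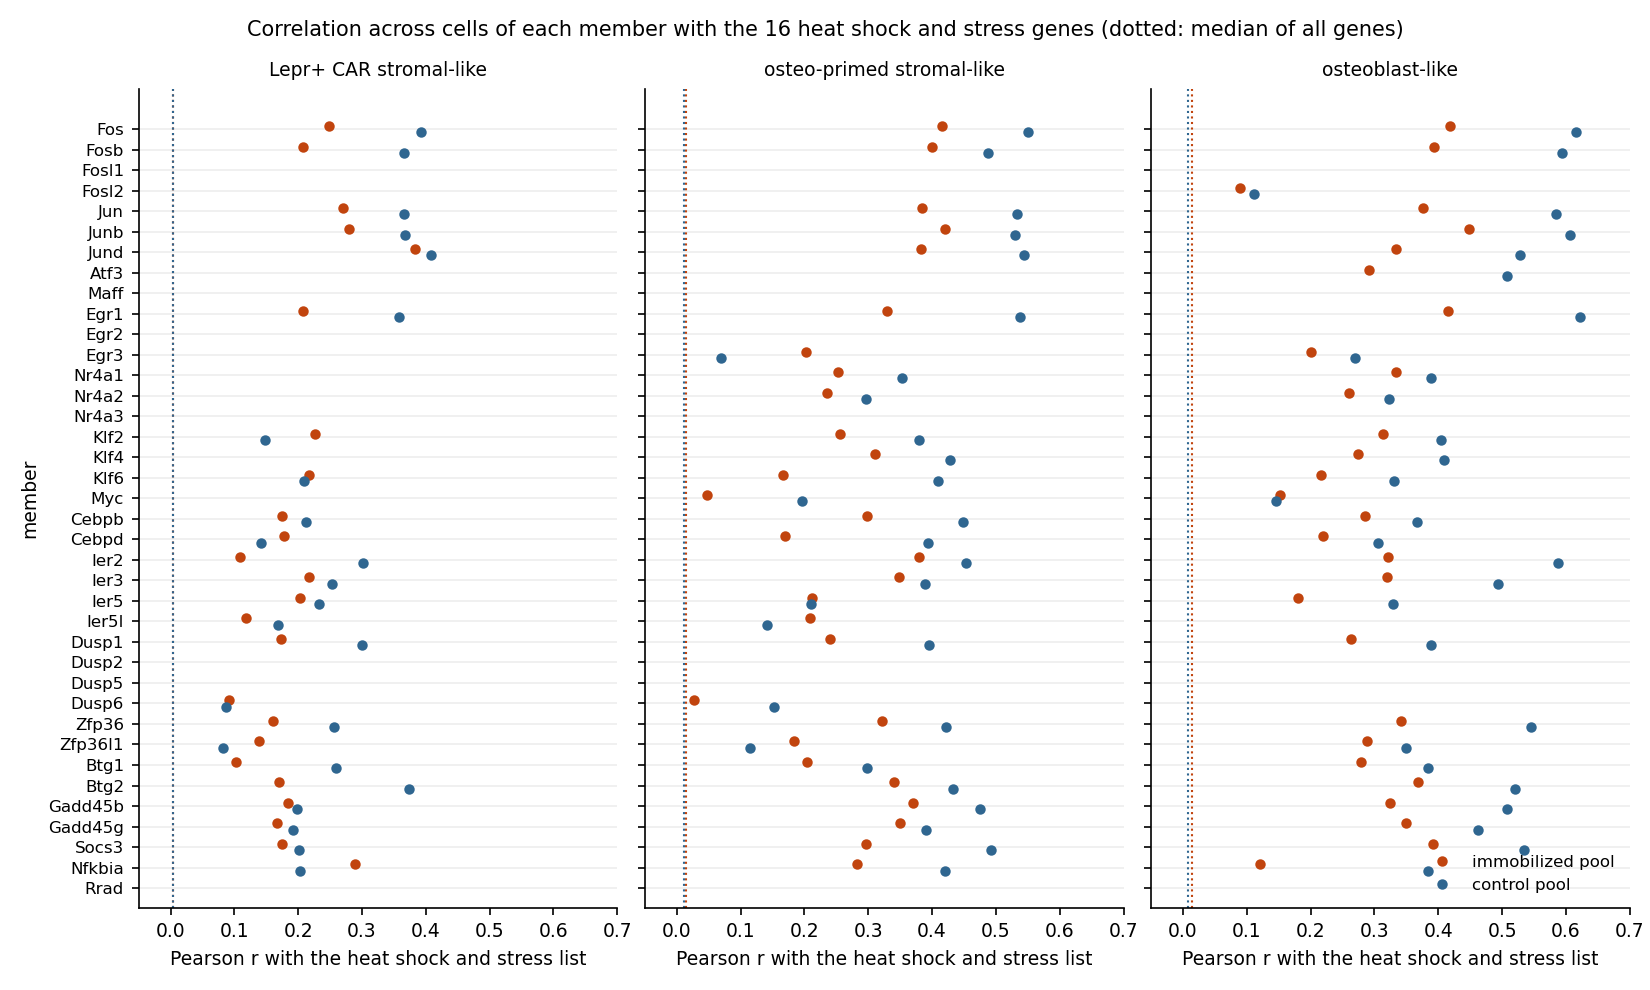
Pearson r across cells of each member with the summed heat shock and stress list, immobilized and control pools, in 3 cell classes, with the median of all genes as a dotted line. In osteoblast-like cells the control points reach 0.62 for Egr1 and the immobilized points 0.45 for Junb, while Fosl2 lies nearest to the dotted line in both pools.

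The difference between the pools was then read in cells without any UMI of Hspa1a or Hspa1b in either lane. A UMI in 1 lane was enough to count as having one, so more cells have one here than in the lane averages above. Lepr+ CAR stromal-like cells without one had 0.249% member UMIs in the immobilized pool (299 cells) and 0.324% in the control pool (467 cells), a log2 ratio of -0.38 (-0.44 to -0.32), with 24 of 25 members below 0 and 7 at least 1.5-fold lower (Ier2, Ier5l, Nr4a1, Klf2, Klf4, Gadd45b and Nfkbia), against 4.44% of all genes. Osteo-primed stromal-like cells without one had 0.382% in the immobilized pool (262 cells) and 0.302% in the control pool (139 cells), the opposite order from the whole class. There 16 of 23 members were above 0 and 7 were at least 1.5-fold higher (Fos, Fosb, Jun, Jund, Egr1, Ier2 and Dusp1), against 2.54% of all genes. Osteoblast-like cells without one had 0.421% in the immobilized pool (369 cells) and 0.345% in the control pool (192 cells), with 20 of 28 members above 0 and 5 at least 1.5-fold higher, against 13.9% of all genes. The median of all genes in that subset was 0.23 and that of the members 0.27, so the members stood close to the background there. Cells were also thinned to 2000 UMIs of the first lane beforehand, which levels depth but also removes some Hspa1a and Hspa1b UMIs. More cells then counted as without one, 278 immobilized and 170 control osteo-primed stromal-like cells and 422 immobilized and 319 control osteoblast-like cells. The shares in cells without one were 0.251% in immobilized and 0.343% in control Lepr+ CAR stromal-like cells, 0.470% in immobilized and 0.554% in control osteo-primed stromal-like cells, and 0.484% in immobilized and 0.509% in control osteoblast-like cells. The order in osteo-primed stromal-like and osteoblast-like cells thus turned round with thinning. The parts of depth, of the use of 1 lane and of the changed set of cells in this were not tested.

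Cells with an Hspa1a or Hspa1b UMI had more member RNA in each class and pool. Among Lepr+ CAR stromal-like cells with one, members held 0.385% of UMIs in the immobilized pool (17 cells) and 0.743% in the control pool (83 cells), a log2 ratio of -0.95, with 12 of 19 members at least 1.5-fold lower, against 9.47% of all genes. Among osteo-primed stromal-like cells with one, members held 1.22% of UMIs in the immobilized pool (34 cells) and 1.38% in the control pool (57 cells). In osteoblast-like cells with one, they held 0.879% in the immobilized pool (104 cells) and 0.905% in the control pool (280 cells). Egr1 in osteo-primed stromal-like cells was at 852 CPM in immobilized and 1050 CPM in control cells with such a UMI, and at 242 CPM in immobilized and 153 CPM in control cells without one. Ier3 in the same class was at 328 CPM in immobilized and 214 CPM in control cells with one, and at 36.1 CPM in immobilized and 38.2 CPM in control cells without one.

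The share was also read within clusters. The members' share in Lepr+ CAR stromal-like cells was lower in the immobilized pool in all 4 clusters, with log2 ratios of -1.20 in cluster 1 (14 control cells), -0.68 in cluster 3, -0.84 in cluster 7 and -0.18 in cluster 12. In osteo-primed stromal-like cells cluster 10 gave -0.75, with 0.628% in the immobilized and 1.05% in the control pool, and cluster 2 gave 0.08, with 0.384% in the immobilized and 0.362% in the control pool. Without cluster 10 no member was at least 1.5-fold lower and the members' median was 0.07. In osteoblast-like cells the 4 clusters gave 0.10 (cluster 9), 0.08 (cluster 11), 0.38 (cluster 13) and -0.06 (cluster 15), and with both pools weighted to 1 cluster mix no member was at least 1.5-fold lower, 3 were higher and the median was 0.13. Of all genes, unweighted, 15.3% were at least 1.5-fold higher and the median was 0.20. The values of all genes with this weighting are not given here. Cluster 15 had the highest share, 1.53% in the immobilized and 1.6% in the control pool, and made up 9.94% of immobilized and 20.1% of control osteoblast-like cells. As a lane average, a UMI of Hspa1a or Hspa1b was in 60.6% of its immobilized and 80% of its control cells. In cluster 10 it was in 14.8% of immobilized and 43.3% of control cells, and in cluster 2 in 6.28% of immobilized and 14.0% of control cells. The clusters thus differed in these genes too, although the heat shock and stress list was left out of the clustering. In cells called male by their sex-linked genes, the osteoblast-like share was 0.492% in the immobilized (99 cells) and 0.499% in the control pool (31 cells), and in female cells 0.545% in the immobilized (344 cells) and 0.717% in the control pool (420 cells). Lepr+ CAR stromal-like cells differed in both sexes, with log2 ratios of -0.93 in female and -0.51 in male cells. Osteoblast-like cells of unclear sex gave 0.66 (30 immobilized, 21 control cells). The pools differed in sex mix: female cells were 23.1% of immobilized and 39.8% of control Lepr+ CAR stromal-like cells. They were 45.9% of immobilized and 59.7% of control osteo-primed stromal-like cells, and 72.7% of immobilized and 89.0% of control osteoblast-like cells. The overlap of sex and cluster was not examined.

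**Figure D5:**
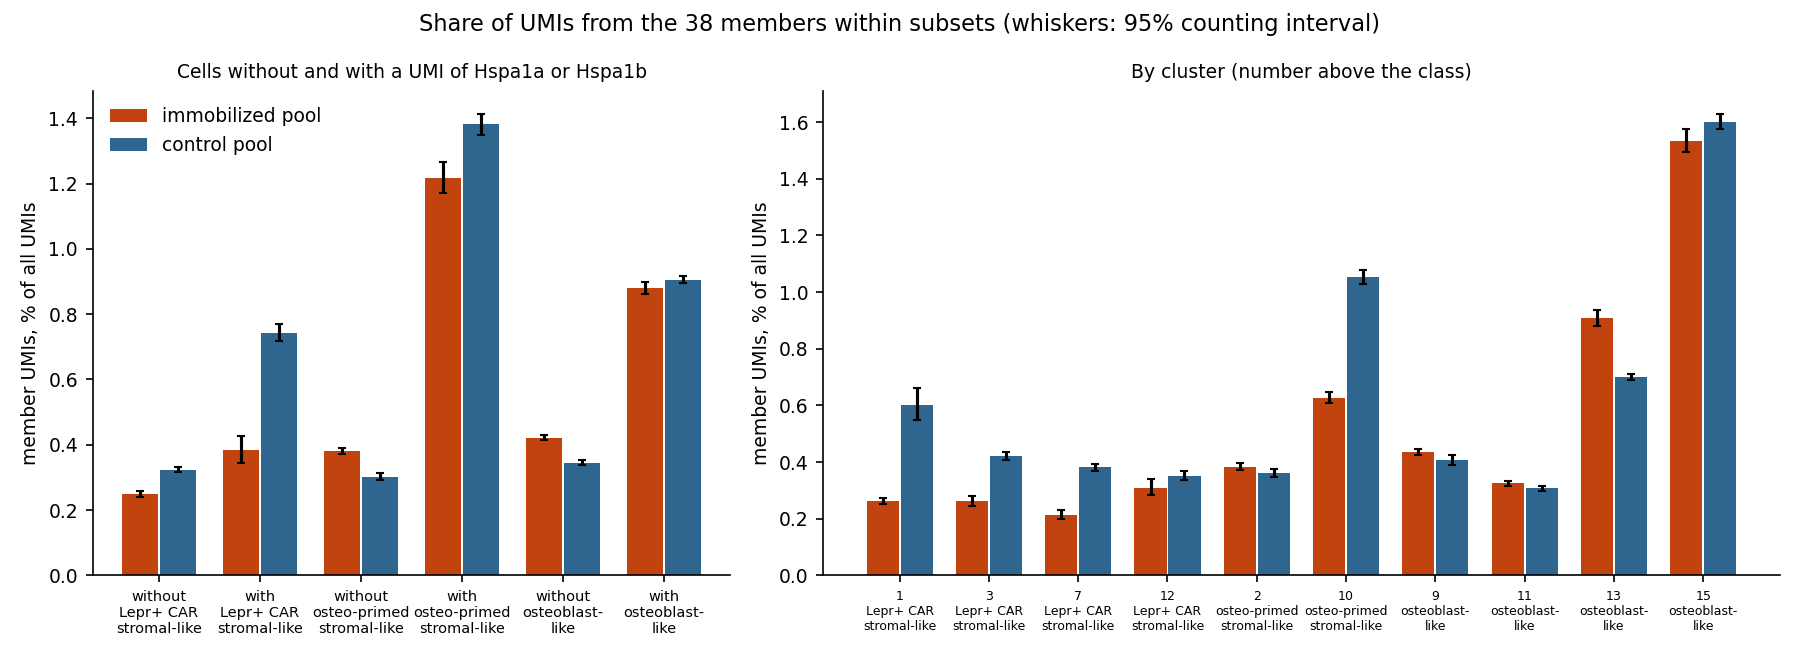
Percent of UMIs from the 38 members, immobilized pool left of control pool, in cells without and with a UMI of Hspa1a or Hspa1b (left panel) and in each cluster (right panel), with 95% counting intervals. The immobilized bars are lower in all 4 Lepr+ CAR stromal-like clusters, and in osteoblast-like cells the bars of a cluster are close or the immobilized one is higher, with the highest pair in cluster 15.

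Lists of related genes, chosen with earlier results of these data known, moved unevenly. Of the heat shock and stress genes, 5 of 12 measured in Lepr+ CAR stromal-like, 5 of 13 in osteo-primed stromal-like and 9 of 14 in osteoblast-like cells were at least 1.5-fold lower, with median log2 ratios of -0.52, -0.46 and -0.61. Of all genes, 4.43%, 2.87% and 3.78% were as much lower in these classes, with medians of 0.00, 0.03 and 0.20. Hspa1a in osteoblast-like cells had 31.7 CPM in the immobilized and 190 CPM in the control pool (log2 ratio -2.58), while Mt1, a metallothionein, was higher at 21.2 CPM in the immobilized and 13.6 CPM in the control pool (0.64). Of other early response genes, 4 of 12, 1 of 13 and 4 of 15 were at least 1.5-fold lower in these classes, against the same shares of all genes, with medians of -0.55, -0.31 and -0.35. None was as much higher, against 4.19%, 3.4% and 15.3% of all genes. Phlda1, which rises with ERK signalling, was the 1 gene of the ERK feedback list lower in each class (log2 ratios -1.27, -1.58 and -0.83), while Spred2, an inhibitor of the same pathway, ran from 0.13 to 0.63. Of the cAMP and CREB targets in Lepr+ CAR stromal-like cells, none of 6 was below 0, against 49.9% of all genes, and 3 were at least 1.5-fold higher, against 4.19%. These were Pde3a with 105 CPM in the immobilized and 13.4 CPM in the control pool, Rgs2 with 109 CPM in the immobilized and 26.6 CPM in the control pool, and Pde4d (0.61). In the same class Actg1 (-0.92), Thbs1 (-0.73) and Amotl2 (-0.69) of 9 SRF and YAP targets, Ccl2 (-1.37) of 9 NF-kB targets, Sgk1 (-0.80) of 8 glucocorticoid targets, and Atf5 (-0.62) and Jdp2 (-0.60) of 13 other bZIP factors were at least 1.5-fold lower, against 4.43% of all genes. Of 7 glucocorticoid targets measured in osteoblast-like cells, 4 were at least 1.5-fold higher (Zbtb16, Fkbp5, Tsc22d3 and Per1, which is also a cAMP target), against 15.3% of all genes. Errfi1 (0.36), Klf9 (0.30) and Cdkn1a (-0.10) did not pass, and the median of the 7 was 0.92, against 0.20 for all genes.

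The genes outside all lists whose level across cells was most like the summed members were partly stress and turnover genes. In Lepr+ CAR stromal-like cells, among 4687 genes, Sqstm1, an autophagy receptor, had r of 0.35 in the immobilized and 0.29 in the control pool, and Slc38a2, an amino acid transporter, 0.29 in the immobilized and 0.33 in the control pool. In osteo-primed stromal-like cells, among 5440 genes, Arf4 had 0.43 in each pool and Sqstm1 0.39 in the immobilized and 0.53 in the control pool. In osteoblast-like cells, among 5563 genes, Lmna, which encodes lamin A and C, had 0.43 in the immobilized and 0.47 in the control pool, and Hes1, a Notch target, 0.40 in the immobilized and 0.62 in the control pool. Slc38a2 was among the 10 most alike in all 3 classes, and Sqstm1, Arf4 and Ubb in both stromal classes.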

How the data were processed

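UMI counts per gene and cell barcode were deposited by the authors for each lane as raw values, made with Cell Ranger 7.0.0 per the submitters' processing notes. Barcodes shared by the 2 lanes of a pool were kept with at least 500 genes and under 10% mitochondrial UMIs. Scrublet calls were removed (9 immobilized, 18 control), although so few calls can miss doublets. Cells were clustered in scanpy 1.11.5 (1974 variable genes without the members and the heat shock and stress list, 30 components, 15 neighbours, Leiden resolution 1.0) and named "-like" where at least 3 markers and 30% of a list passed 2-fold. Cluster 0, with Lepr+ CAR markers but adipocyte genes in front, stayed unnamed. UMIs were summed per class, averaged over lanes and divided by the class total (CPM). Correlations over cells used the lanes added together, and their thinned versions the first lane only. Levels carry exact Poisson, shares exact binomial and ratios exact conditional binomial 95% intervals, which treat UMIs as independent, and log2 ratios use a pseudocount of 0.5 counts. Genes with at least 50 UMIs in 1 pool count as measured. UMI counts are not divided by gene length, so levels are compared only within a gene. The step that counts genes past 1.5-fold was run on simulated Poisson counts, the model the intervals assume. It recovered 96.5%, 98% and 97% of 200 genes changed 2-fold in Lepr+ CAR, osteo-primed stromal-like and osteoblast-like cells. Of unchanged genes it called 0.887%, 1.40% and 1.86%. The simulation holds no spread between cells or animals, so it checks the working of the step only. All members measured in Lepr+ CAR stromal-like cells are named. For osteo-primed stromal-like and osteoblast-like cells, the members past 1.5-fold and only some of the others are named. Nr4a2 was at -0.34 in osteo-primed stromal-like and -0.45 in osteoblast-like cells, and Nr4a3 at -0.38 in osteoblast-like cells. The members, lists and tests were chosen with earlier results of these data known. Alternatives are in the closing section. Before filtering, the median mitochondrial share was 5.13% in the immobilized and 3.62% in the control pool, and 3 barcodes occurred in both pools.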

Additional observations from a re-analysis of the deposited data

How the results depend on the processing

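The direction of the Lepr+ CAR stromal-like result held under each alternative, with member medians between -1.04 and -0.42 and 7 to 23 members at least 1.5-fold lower. The lowest counts there were 8 with all variable genes in the clustering and 7 in cells without a UMI of Hspa1a or Hspa1b. In those cells the osteo-primed stromal-like median was 0.32 with 0 members lower and 7 higher (Fos 0.63, Jun 0.76, Zfp36 0.48, Klf2 0.0057, Socs3 0.0083), and the osteoblast-like median 0.27 with 0 lower and 5 of 28 higher, against 13.9% of all genes (Ier2 0.032, Ier3 0.056, Zfp36 0.11, Socs3 0.35). For osteo-primed stromal-like cells, leaving out cluster 10 gave a median of 0.073 and 0 lower (Fos 0.017, Jun 0.35, Socs3 0.13), the looser cell filter 2 lower, thinning to 2000 UMIs 4 lower and Leiden resolution 2.0 14 lower, and 1 member was higher at resolution 0.5, with all variable genes and with doublet calls kept. For osteoblast-like cells, 1 cluster mix gave a median of 0.13 and 0 lower (Junb 0.032, Atf3 0.076, Ier2 0.023, Btg2 0.041, Socs3 0.069), and male cells a median of 0.046 with 0 lower and 1 higher (Atf3 0.21, Ier2 0.046, Btg2 1.21). The stricter filter gave 16 lower and 0 higher (Egr2 -1.39), median-ratio scaling 19 lower and 1 higher, a mitochondrial share under 4% 0 higher (Egr2 -0.50), thinning 0 higher and equal cell weights 1 higher. Without cluster 9 the osteoblast-like median was -0.26 with 3 lower, without cluster 11 4 were lower and 1 higher, without cluster 13 0 were higher and without cluster 15 1 was higher. Leaving out 1 lane at a time gave 1 to 2 higher in osteoblast-like cells. For pairs, Spearman's rho gave 40 in Lepr+ CAR stromal-like cells, thinning of the first lane 26, 71 and 58 in the 3 classes, and centring within clusters 109 in osteoblast-like cells. Thinning of the first lane gave median r of members with the heat shock and stress list of 0.069 in immobilized and 0.12 in control Lepr+ CAR stromal-like cells, 0.15 in immobilized and 0.26 in control osteo-primed stromal-like cells, and 0.16 in immobilized and 0.24 in control osteoblast-like cells. The cause of these changes was not tested, and the values of all genes under these alternatives are given only where stated. Leaving out single clusters, counting cluster 0 in its class, centring within clusters and the cells with an Hspa1a or Hspa1b UMI were chosen after seeing the data. No paired analysis was possible because the replicate numbers name 2 lanes of 1 pool and no test across samples was made. Animals, their sex mix, handling and immobilization cannot be told apart with 1 pool per group.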
